A study of Mus musculus with 8 samples.

Results

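The high mobility group (HMG) genes encode small, abundant chromatin proteins of 3 families, which share a name from their behaviour in gels and not a common fold. HMGB proteins carry HMG boxes that bind the minor groove and bend DNA. HMGN proteins bind nucleosomes directly and are known to counter compaction by linker histone H1. HMGA proteins carry AT-hooks that grip AT-rich DNA, and are typical of embryonic and undifferentiated cells. The 9 genes described here, of 55401 rows in the count table, were Hmgb1, Hmgb2 and Hmgb3, Hmgn1, Hmgn2, Hmgn3 and Hmgn5, and Hmga1 and Hmga2. They were selected on family membership with the KO and WT values of these same libraries already known, so their differences between the groups are given as descriptions, and a call made by the fit over all genes is read as no support for them.

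The libraries were RNA sequencing of mouse prospermatogonia, the fetal male germ cells that pause division before birth, at E17.5 (counted in days of embryonic development). Per the labels, 4 libraries were Tet1-/- (KO 1 to KO 4) and 4 were Tet1+/+ (WT 1 to WT 4), in 1 batch and with no further treatment. TET1 oxidises 5-methylcytosine and also has activities that do not need catalysis, and the series title places the study on the non-catalytic side. The sources used here do not give the kind of Tet1 allele, the way cells were isolated or whether each library was a separate animal. The p-values below therefore measure the spread between these libraries, which may be technical in part.

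Total counts ran from 13820764 to 20115250 per library, and a count of 3 was worth 0.149 to 0.217 CPM (counts relative to the library total). All other CPM values are TMM-scaled, which takes out a trimmed mean difference between libraries. Tet1 itself stood at 129, 145, 75.8 and 147 CPM in KO 1 to KO 4, against 30.3, 30.2, 32.8 and 34.2 CPM in WT 1 to WT 4. Tet1 counts were thus higher in the libraries labelled Tet1-/-. Whether labels were exchanged, or the allele leaves or raises Tet1 RNA, was not tested, and the kind of allele is not given. The groups are therefore called the libraries labelled KO and WT, with KO and WT alone as short for these labels. Every direction below is between libraries as labelled. All 13 germ cell markers were tested, and their summed level was 2708 to 3247 CPM in the libraries labelled KO and 3029 to 3559 CPM in those labelled WT. Singly, 7 of these 13 markers passed as higher in KO, 3 as lower and 3 did not pass, with a median log2 difference of 0.55 (edgeR). Among all tested genes 25.3% passed as higher and 28.2% as lower. KO 4 stood apart. Its 9 Leydig cell markers summed to 1760 CPM, against 14.98 to 21.8 CPM in KO 1 to KO 3 and 17.3 to 34.85 CPM in the libraries labelled WT, and its 12 Sertoli cell markers to 157 CPM, against 47.4 to 70.4 CPM in all others. Within the Sertoli list, Inha (58.3 CPM) and Clu (52.5 CPM) stood high in KO 4, but not all markers did. Sox9 was at 6.23 CPM in KO 4 and 6.13 CPM in KO 3, and Dhh at 1.16 and 1.18 CPM. The 8 endothelial markers summed to 77.1 to 89.97 CPM in the libraries labelled KO and 96.4 to 136 CPM in those labelled WT. The 11 interstitial and peritubular markers summed to 138 to 186.5 CPM in KO and 129 to 188 CPM in WT, and the 12 macrophage and blood markers to 18.5 to 32.0 CPM in KO and 27.25 to 34.6 CPM in WT. Of the 7 endothelial markers tested 1 passed as higher in KO and 6 as lower, and 1 and 4 without KO 4. Of the 7 Leydig cell markers tested 4 passed as higher and 1 as lower, and 0 and 1 without KO 4. For the 11 Sertoli cell markers tested these counts were 4 and 1, and 3 and 1 without KO 4. No gene of these marker lists was at 0 in all libraries of a group. The part of these cells in the results was not tested, and values without KO 4 are given below. In RNA from bulk cells, a larger share of one kind of cell and more RNA per cell cannot be told apart.

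All 9 HMG genes passed the filter on low counts. With edgeR's quasi-likelihood test and a Benjamini-Hochberg adjusted p under 0.05 as the threshold for a call, 7 of the 9 were called. Among all 24005 tested genes 53.5% were called, so the count of 7 is read against a background in which most genes pass, and nothing is taken from it. The 6 called higher in the libraries labelled KO were Hmgb1, Hmgb2, Hmgb3, Hmgn1, Hmgn2 and Hmgn5, where 25.3% of all tested genes were called higher. Hmga2 was called lower, where 28.2% of all tested genes were. The groups did not overlap for 7 of the 9 genes, and for 48.4% of all tested genes. The median log2 difference, KO minus WT, was 0.99 over the 9 genes and -0.05 over all tested genes. Scaling changes this background: of all called genes 47.3% were higher with TMM, 31.2% with upper-quartile scaling, 35.3% with total library size only and 34.5% with ribosomal protein gene scaling. These last 3 scalings moved the median difference of all tested genes by -0.24, -0.18 and -0.18 from its TMM value.

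**Figure D1:**
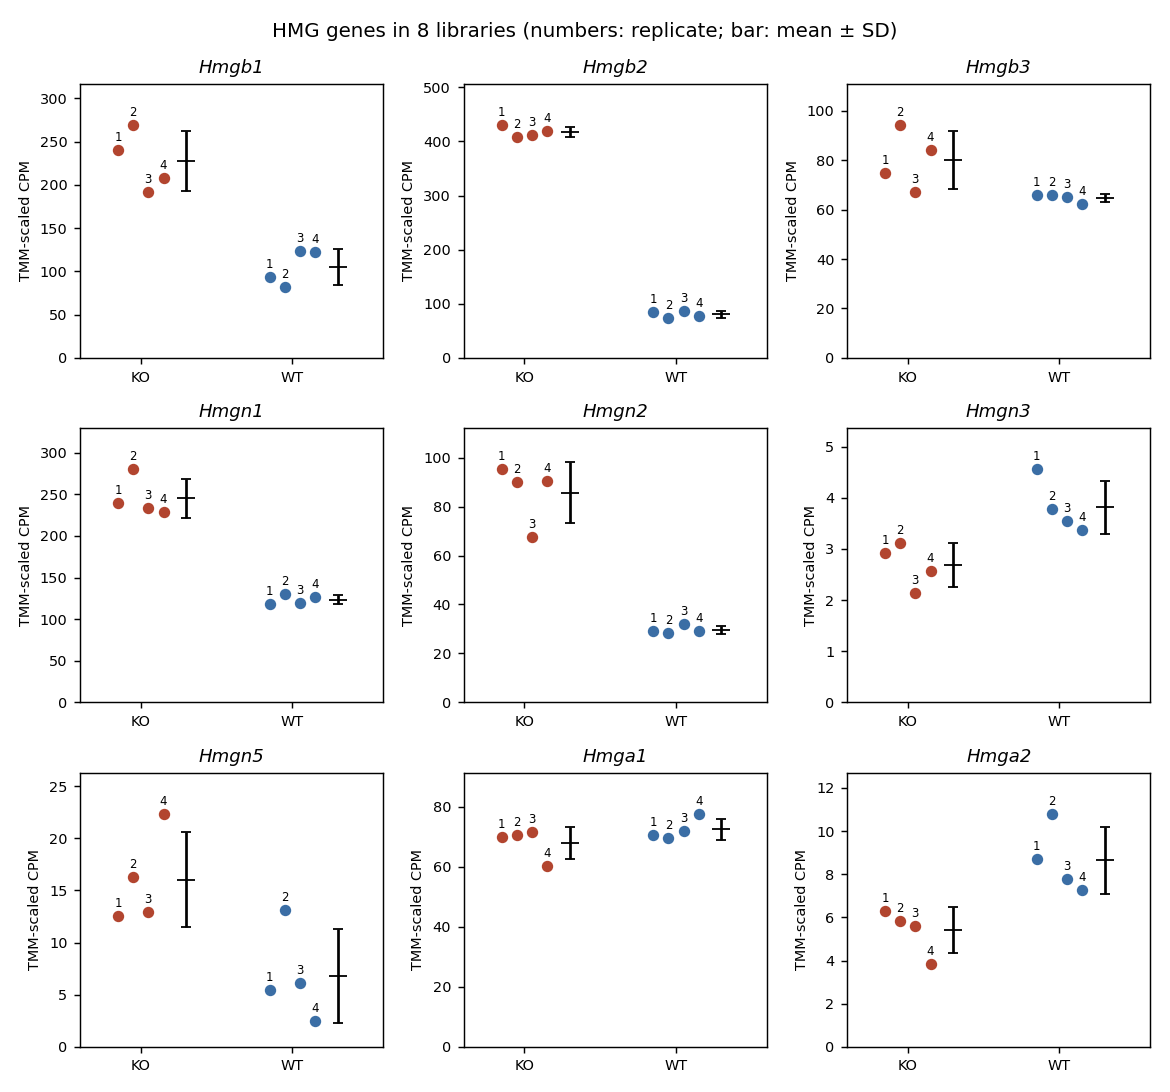
TMM-scaled CPM of the 9 HMG genes in each library, on linear axes starting at 0, with libraries labelled KO left of those labelled WT, replicate numbers above the points and mean ± SD (n = 4) beside them. Hmgb2 shows the widest gap (417.5 CPM in KO and 80.1 CPM in WT on average), while the groups overlap for Hmga1 and Hmgn5.

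Hmgb2 (chromosome 8, 57511907 to 57515999, plus strand, mm10) encodes the HMG box protein best known from dividing and germ line cells, and in the mouse its loss impairs spermatogenesis. It was the HMG gene that differed most. It had 431, 408, 411.5 and 419.5 CPM in KO 1 to KO 4, against 84.4, 73.0, 85.7 and 77.4 CPM in WT 1 to WT 4. Every library labelled KO lay far above every library labelled WT, and both groups were tight, with an SD of 2.39% of the mean in KO and 7.51% in WT. The log2 difference was 2.38 (SE 0.10), a ratio of 5.21. It lay between 2.13 and 2.44 over 21 other fits, and stood at 2.41 without KO 4.

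Hmgb1 (chromosome 5, 149046702 to 149184489, minus strand) encodes the most widely expressed HMG box protein, which also acts as a danger signal outside cells. Its levels were 240, 269, 192 and 207 CPM in KO 1 to KO 4, against 93.5, 81.7, 123 and 122 CPM in WT 1 to WT 4. The lowest KO value was above the highest WT value. The log2 difference was 1.11 (SE 0.15), and 1.18 without KO 4. One exon of Hmgb1 overlaps an exon of Uspl1 on the other strand by 42 bases. Uspl1 had 7822 counts summed over the libraries labelled KO and 11111 over those labelled WT, and no source used here gives the strand setting of the counting.

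Hmgb3 (chromosome X, 71555918 to 71560676, plus strand) is known from embryos and from blood and other stem cells. It had 74.9, 94.4, 67.2 and 84.1 CPM in KO 1 to KO 4, against 65.8, 65.9, 65.1 and 62.3 CPM in WT 1 to WT 4. The groups did not overlap, but KO 3 was only just above the highest WT library. On the log2 scale the difference was 0.31 (SE 0.11). This is the least stable of the 6 higher calls: of 21 other fits 10 kept it and 11 lost it, with the difference at 0.07 under upper-quartile scaling, 0.12 with total library size only, 0.12 with ribosomal protein gene scaling and 0.04 with cyclic loess. The call was also lost without KO 2, KO 4, WT 1, WT 3 or WT 4, each with a difference between 0.26 and 0.33.

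The coding sequences of the HMGB genes are related but distinct at the DNA level. Hmgb1 and Hmgb2 were 76.8% identical over 638 aligned bases, Hmgb1 and Hmgb3 73.6% over 621, and Hmgb2 and Hmgb3 71.1% over 622. Hmgb4, an HMGB gene of the later male germ line, had 3 counts summed over the libraries labelled KO and 10 over those labelled WT. It was below the filter, and no difference is given for it.

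The promoters of Hmgb2, Hmgb3, Hmgn2 and Hmga2 are shown because these genes span the range of differences, from the largest higher value through a small one to the lower one. They are RefSeq windows (GRCm38.p6) of 250 bases before to 50 after the annotated start, at chr8:57511593-57511892 (plus strand), chrX:71555667-71555966 (plus), chr4:133967942-133968241 (minus) and chr10:120476420-120476719 (minus). The RefSeq start of Hmgb2 lies before the gene start of GENCODE M21, the annotation used for symbols here. Capitals mark 2 motifs on either strand: CCAAT, the core of the box bound by NF-Y, and TTTGAA, the CHR element known from cell cycle genes. On the minus strand they read ATTGG and TTCAAA.
Hmgb2: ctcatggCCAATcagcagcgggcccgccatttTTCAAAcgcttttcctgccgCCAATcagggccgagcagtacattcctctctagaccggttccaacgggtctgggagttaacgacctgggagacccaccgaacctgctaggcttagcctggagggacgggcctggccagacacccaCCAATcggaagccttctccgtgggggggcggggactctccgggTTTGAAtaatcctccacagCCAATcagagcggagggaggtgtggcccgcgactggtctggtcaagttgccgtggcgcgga
Hmgb3: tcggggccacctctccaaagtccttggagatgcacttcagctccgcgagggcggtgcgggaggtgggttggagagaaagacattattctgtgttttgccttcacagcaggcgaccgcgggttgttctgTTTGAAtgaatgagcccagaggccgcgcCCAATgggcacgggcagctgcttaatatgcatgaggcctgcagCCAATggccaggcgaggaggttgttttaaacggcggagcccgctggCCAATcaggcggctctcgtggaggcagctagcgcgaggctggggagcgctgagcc
Hmgn2: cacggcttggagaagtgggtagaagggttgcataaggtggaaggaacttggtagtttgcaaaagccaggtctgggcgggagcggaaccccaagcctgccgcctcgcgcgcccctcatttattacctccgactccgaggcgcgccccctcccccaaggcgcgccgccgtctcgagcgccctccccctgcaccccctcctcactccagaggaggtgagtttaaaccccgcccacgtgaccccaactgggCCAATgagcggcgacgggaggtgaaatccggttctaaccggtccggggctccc
Hmga2: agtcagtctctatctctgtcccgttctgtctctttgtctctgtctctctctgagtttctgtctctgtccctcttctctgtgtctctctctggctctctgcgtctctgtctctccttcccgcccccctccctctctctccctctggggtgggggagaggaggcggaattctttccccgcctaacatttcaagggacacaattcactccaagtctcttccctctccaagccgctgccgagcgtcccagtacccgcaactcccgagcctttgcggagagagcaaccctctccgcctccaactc

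Of the 9 genes, 8 had a RefSeq window and these had 10 windows between them. CCAAT was present in windows of Hmgb1, Hmgb2, Hmgb3, Hmgn1, Hmgn2 and Hmgn5, and in 37.4% of all 32851 windows. The Hmgb2 window held 4 matches and those of Hmgb1 and Hmgb3 held 3 each, where 11.7% of all windows held 2 or more. TTTGAA occurred in the windows of Hmgb2 (2 matches) and Hmgb3 (1 match), and in 17.9% of all windows, with 2 or more in 2.31%. No match overlapped another. Neither motif was in the windows of Hmga1 and Hmga2. The E2F letters TTTCCCGC, TTTCGCGC, TTTGCCGC and TTTGGCGC, searched on both strands, were in none of the 10 windows and in 2.265% of all windows. The observed to expected CpG ratio of the 10 windows had a median of 0.84 (0.54 in Hmga2 to 1.01 in the second Hmgb1 window), against 0.38 for all windows. Such matches describe the letters of these windows and nothing more.

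**Figure D2:**
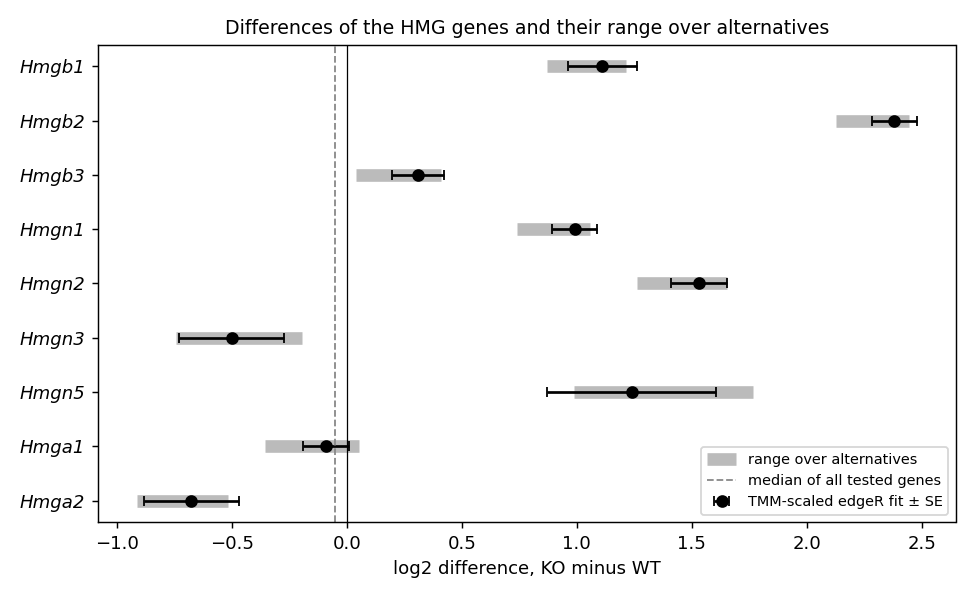
Log2 difference, KO minus WT, of each HMG gene (points, with SE) over the grey range of 21 other fits, beside 0 (solid line) and the median of all tested genes (dashed line, -0.05). Hmgb2 lies at 2.38 and stays above 2.13, while the grey range of Hmga1 crosses 0.

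Among the nucleosome-binding HMGN genes, Hmgn1 and Hmgn2 were the abundant members and both were higher in the libraries labelled KO. Hmgn1 (chromosome 16, 96120618 to 96127729, minus strand) had 240, 280, 233.5 and 229 CPM in KO 1 to KO 4, against 119, 130, 119 and 126 CPM in WT 1 to WT 4. The lowest KO library was well above the highest WT library. This came to a log2 difference of 0.99 (SE 0.10), a ratio of 1.99, and 1.05 without KO 4.

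Hmgn2 (chromosome 4, 133964738 to 133968650, minus strand), the closest relative of Hmgn1 in function, had 95.3, 89.97, 67.4 and 90.35 CPM in KO 1 to KO 4, against 29.25, 28.3, 32.1 and 28.99 CPM in WT 1 to WT 4. KO 3 was the lowest of its group and still above all libraries labelled WT. Hmgn2 differed by 1.53 on the log2 scale (SE 0.12), and 1.53 without KO 4.

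Hmgn5 (chromosome X, 109004534 to 109013404, minus strand) encodes a longer HMGN protein with an acidic tail, from a coding sequence of 1221 bases against 291 for Hmgn1. It had 12.6, 16.3, 12.9 and 22.4 CPM in KO 1 to KO 4, against 5.48, 13.1, 6.085 and 2.46 CPM in WT 1 to WT 4. The groups overlapped through WT 2, which was above KO 1 and KO 3. The WT libraries spread more than for any other of the 9 genes, with an SD of 66.5% of the mean. Between the groups the log2 difference was 1.24 (SE 0.37), with 1.77 without WT 2, 0.99 without WT 4 and 1.07 without KO 4.

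Hmgn3 (chromosome 9, 83109948 to 83146685, minus strand), known from brain and endocrine cells, was at a low level among these genes. Averaged over both groups, it stood at the 41.6 percentile of tested genes per length. It had 2.915, 3.12, 2.14 and 2.57 CPM in KO 1 to KO 4, against 4.56, 3.78, 3.55 and 3.365 CPM in WT 1 to WT 4. These values rest on 29 to 55 counts per KO library and 52 to 89 per WT library. The groups did not overlap and the log2 difference was -0.50 (SE 0.23), which was not called. It was called lower in 3 of 21 other fits, at -0.74 with upper-quartile, -0.69 with total library size only and -0.70 with ribosomal protein gene scaling.

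Hmga1 (chromosome 17, 27556497 to 27563674, plus strand) was the more abundant of the AT-hook genes. Its levels were 69.9, 70.5, 71.6 and 60.1 CPM in KO 1 to KO 4, against 70.7, 69.5, 72.0 and 77.7 CPM in WT 1 to WT 4. The groups overlapped, with KO 4 apart on the low side. The log2 difference was -0.09 (SE 0.10) and not called. It was -0.010 without KO 4 and -0.04 without WT 4, not called in either. Its call depended on the scaling and its sign on the copy Hmga1b: -0.33 with upper-quartile scaling, -0.27 with total library size only and -0.36 with cyclic loess, all called lower, and 0.054 with the reads of Hmga1b added, not called.

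Hmga1b is a near-identical gene, with 98.9% of bases identical over the whole coding sequence of Hmga1. It had 17.2, 20.6, 27.4 and 16.3 CPM in KO 1 to KO 4, against 10.2, 10.2, 11.2 and 19.2 CPM in WT 1 to WT 4. WT 4 was above KO 1 and KO 4, so the groups overlapped. It rose by 0.68 on the log2 scale (SE 0.23; edgeR adjusted p = 0.0216). That call was lost under upper-quartile (0.46), total library size (0.51) and ribosomal protein gene scaling (0.52), and without KO 3 (0.53), WT 1 (0.59), WT 2 (0.60) or WT 3 (0.65). Of the 50-base words of Hmga1 exons 55.0% also occur in another annotated transcript, so reads of the pair may have been divided or lost.

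Hmga2 (chromosome 10, 120361275 to 120476469, minus strand), the fetal AT-hook gene that let-7 microRNAs repress, was the 1 gene of the 9 called lower. It had 6.29, 5.84, 5.61 and 3.855 CPM in KO 1 to KO 4, against 8.71, 10.8, 7.79 and 7.25 CPM in WT 1 to WT 4. No KO library reached the lowest WT library. The groups differed by -0.68 on the log2 scale (SE 0.21), and by -0.52 without KO 4, where the call was lost. These levels rest on 60 to 103 counts per KO library and 112 to 186 per WT library. One exon overlaps an exon of 1700006J14Rik on the other strand by 140 bases, and that gene had 185 counts summed over the libraries labelled KO and 487 over those labelled WT.

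The let-7 sites of Hmga2 are shown because this gene is a standard let-7 target. The mature let-7 sequence is from RefSeq (GRCm38.p6), with its seed, bases 2 to 8, in capitals. The 4 matches to that seed in the annotated 3' UTR of Hmga2, and the 1 in that of Hmga1, are given as 23 bases ending 1 base after the match, with the match CTACCTC in capitals.
mmu-let-7a-5p: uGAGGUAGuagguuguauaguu
Hmga2 site 1: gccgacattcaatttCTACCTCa
Hmga2 site 2: ccccactcctcaataCTACCTCt
Hmga2 site 3: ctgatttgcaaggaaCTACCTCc
Hmga2 site 4: aatcaaaacacactaCTACCTCt
Hmga1 site 1: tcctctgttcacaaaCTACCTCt

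The same seed was shared by 10 of the 11 mature let-7 family names in the table. The other 7 HMG genes had no match in their 3' UTRs. Of 16439 genes with an annotated 3' UTR, 11.5% had at least 1 match and 12 genes had 4 or more. Mature microRNAs are not measured by these libraries. The highest let-7 family hairpin row, Mir98, had 23 counts summed over the libraries labelled KO and 23 over those labelled WT.

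Other genes of the LIN28 and let-7 axis, which holds let-7 regulators and known targets, were mostly higher. Of 22 listed and tested genes 17 rose, 0 fell and 5 did not pass, where 25.3% of all tested genes rose and 28.2% fell. The median log2 difference of the list was 0.65. With upper-quartile scaling 12 rose and 3 fell. Those with the lowest p were Mycn, a growth-promoting transcription factor, Cdc25a, a phosphatase that drives entry into S phase, Hic2 and Igf2bp3. Mycn averaged 65.9 ± 10.7 CPM in the libraries labelled KO and 5.90 ± 0.53 CPM in those labelled WT (SD, n = 4; log2 difference 3.48, edgeR adjusted p = 9.21e-09). Cdc25a averaged 85.3 ± 7.003 CPM in KO and 28.99 ± 2.29 CPM in WT (1.56, edgeR adjusted p = 4.36e-07), and Igf2bp3 82.5 ± 12.7 CPM in KO and 35.7 ± 3.88 CPM in WT (1.21, edgeR adjusted p = 1.15e-05). These 3 genes hold 0, 1 and 1 seed matches.

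Beside Hmga2, 4 listed genes had 4 seed matches, and these, apart from Hic2, were chosen after their values were seen. Hic2 rose by 1.20 (edgeR adjusted p = 5.56e-06), Trim71 by 1.20 (edgeR adjusted p = 3.48e-05) and Igf2bp1 by 0.96 (edgeR adjusted p = 5.75e-05) on the log2 scale. Lin28b, which blocks let-7 maturation, had a difference of -0.22 that did not pass (edgeR adjusted p = 0.059), with 51.7 ± 1.53 CPM in KO and 60.4 ± 2.575 CPM in WT. It passed as lower with upper-quartile (-0.46), total library size (-0.40), ribosomal protein gene (-0.40) and cyclic loess scaling (-0.48), and among protein-coding genes only (-0.27) or with the stricter filter (-0.26). Lin28a, named after its values were seen, went the other way, with 136 ± 42.5 CPM in KO and 55.1 ± 22.05 CPM in WT. The log2 difference of Lin28a was 1.30 (edgeR adjusted p = 0.00139), and its 3' UTR held 2 seed matches. Over all tested genes, 11 others had at least as many matches as Hmga2, of which 5 were called higher, 1 lower and 5 not called. Since 53.5% of all tested genes were called, nothing is taken from these counts. Of the listed genes with at least 1 match 10 of 12 rose, as did 7 of the 10 with 0 matches, where 25.3% of all tested genes rose.

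To compare levels between genes, CPM was divided by the length of the annotated exons in kilobases (RPKM). In the libraries labelled KO, Hmgb2 led with 139 ± 3.32 RPKM, followed by Hmgn1 with 76.2 ± 7.30 RPKM and Hmgb1 with 45.2 ± 6.85 RPKM (SD, n = 4). Hmgb3 (35.9 RPKM), Hmga1 (32.0 RPKM) and Hmgn2 (28.02 RPKM) came next, and from Hmgb1 down to Hmgn2 the range of each gene overlapped that of its neighbour. Hmgn5 (8.29 RPKM), Hmgn3 (1.44 RPKM) and Hmga2 (0.80 RPKM) closed the order, each apart from its neighbours.

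The order in the libraries labelled WT was another. There Hmgn1 led with 38.4 ± 1.77 RPKM, then Hmga1 with 34.1 ± 1.71 RPKM, Hmgb3 with 29.0 ± 0.75 RPKM, Hmgb2 with 26.7 ± 2.00 RPKM and Hmgb1 with 20.9 ± 4.15 RPKM. The ranges of Hmgb3 and Hmgb2, and of Hmgb2 and Hmgb1, overlapped. Hmgn2 (9.69 RPKM), Hmgn5 (3.51 RPKM), Hmgn3 (2.04 RPKM) and Hmga2 (1.28 RPKM) were lowest, with overlap between Hmgn5 and Hmgn3. Hmgb2 was thus 1st of 9 in KO and 4th of 9 in WT. With the longest transcript as length, Hmgb2 stayed 1st in KO at 159 RPKM and was 5th in WT at 30.5 RPKM. Hmga1 was then 4th in WT, and the ranges of Hmgn3 and Hmga2 overlapped in both groups. Averaged over both groups, Hmgb2 stood at the 98.45 percentile of tested genes per length, and Hmga2 at the 28.4 percentile.

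**Figure D3:**
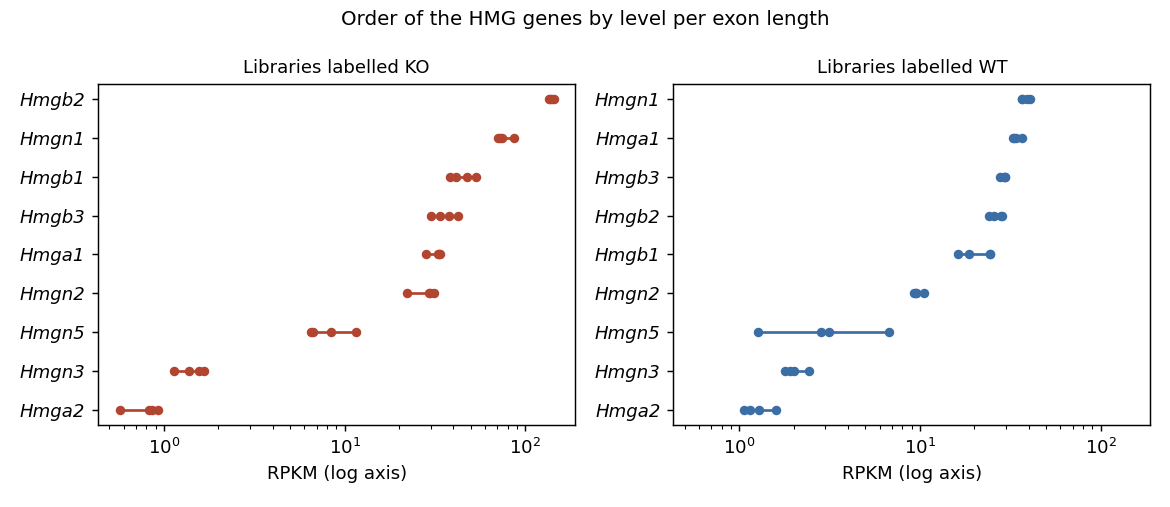
RPKM of each HMG gene on a log axis, 1 point per library and a line over the range, ordered by mean within the libraries labelled KO (left) and WT (right). Hmgb2 heads the KO order at 139 RPKM on average and lies 4th in the WT order at 26.7 RPKM.

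Family by family, the HMGB genes summed to 725 ± 43.8 CPM in the libraries labelled KO and 250 ± 23.3 CPM in those labelled WT, a ratio of 2.90. The HMGN genes summed to 350 ± 30.3 CPM in KO and 164 ± 7.97 CPM in WT (ratio 2.14), and the HMGA genes to 73.4 ± 6.31 CPM in KO and 81.1 ± 2.59 CPM in WT (ratio 0.91; SD, n = 4). The HMGA sum holds Hmga1 and Hmga2 only. It leaves out Hmga1b, which averaged 20.4 CPM in KO and 12.7 CPM in WT, so the ratio below 1 is limited to these genes. The make-up of the HMGB family differed as well. Hmgb2 took 63.3 ± 3.365% of the family's RPKM in KO and 34.8 ± 1.59% in WT. Hmgb3 took 16.3 ± 1.75% in KO and 38.0 ± 3.09% in WT, and Hmgb1 20.5 ± 2.13% in KO and 27.2 ± 3.94% in WT. The shares of Hmgb2 and Hmgb3 did not overlap between the groups, nor did that of Hmgb1, whose highest KO share was 23.1% (KO 2) and lowest WT share 23.2% (WT 2). This narrow gap depends on the lengths chosen for the HMGB genes. With the longest transcript of each gene as length, the Hmgb1 shares of KO 2 and WT 2 change order and the groups overlap.

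**Figure D4:**
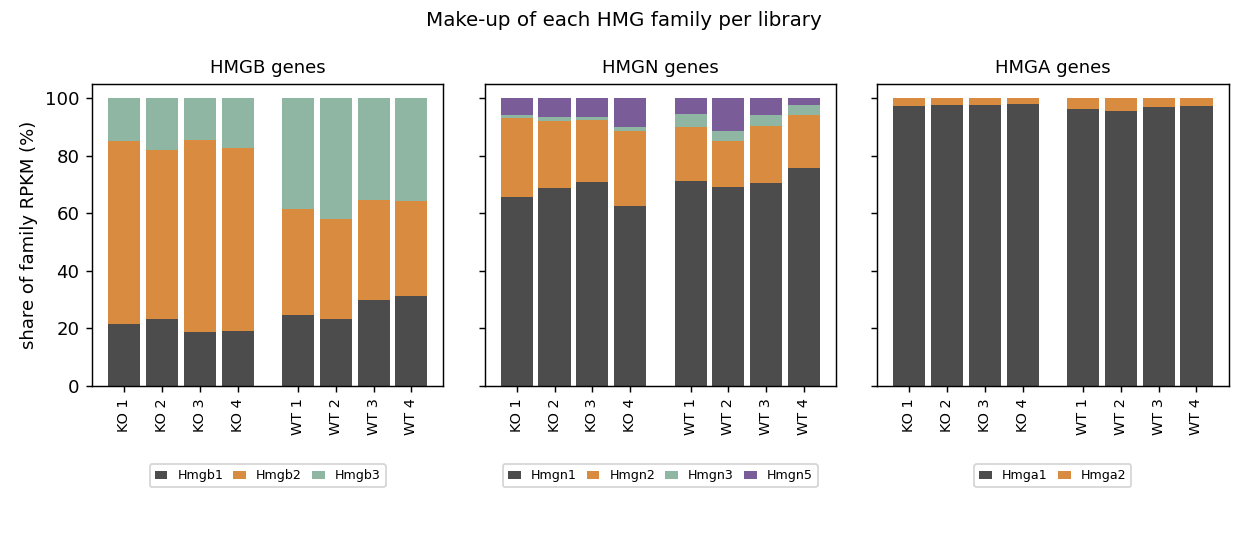
Share of each gene in the summed RPKM of its family (%), 1 stacked bar per library from 0 to 100, libraries labelled KO left of those labelled WT. Hmgb2 averages 63.3% of the HMGB bar in KO and 34.8% in WT, while Hmgn1 and Hmga1 make up most of their bars in both groups. The HMGA bar holds Hmga1 and Hmga2, without Hmga1b.

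Among HMGN genes, Hmgn1 held 66.9 ± 3.64% in KO and 71.65 ± 2.86% in WT, and Hmgn2 24.55 ± 2.66% in KO and 18.15 ± 1.74% in WT. Hmga1 made up 97.6 ± 0.33% of the summed RPKM of Hmga1 and Hmga2 in KO and 96.4 ± 0.77% in WT, with Hmga1b left out. These shares are within a library, so no scaling between libraries enters them, but they were set by the same counts as the differences above and are no separate support.

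HMG genes have many processed pseudogenes, and their rows in the same table bear on how reads were assigned. Annotated transcripts held 110 pseudogene copies of the Hmgb1 coding sequence, at 90% identity or more over at least 50% of its length, and 22.7% of its 50-base words occur in 132 other genes. Shared words made up 25.4% for Hmgn2, 25.02% for Hmgb3, 18.7% for Hmgb2, 18.6% for Hmgn5 and 4.33% for Hmgn1. The 110 copies held 4568 counts over the libraries labelled KO and 4855 over those labelled WT. Of the 27 tested among them 11 passed as higher in KO and 5 as lower, where 25.3% of all tested genes passed as higher and 28.2% as lower. The 12 Hmgb1 pseudogenes of 98% identity or more held 1751 counts over the libraries labelled KO and 852 over those labelled WT. Of the 8 tested among them, 7 passed as higher in KO (edgeR) and 0 as lower. The Hmgb1 row itself held 14199 counts in KO and 7653 in WT.

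Adding the reads of copies of 95% identity or more to each gene, an alternative chosen after seeing the data, left 7 of 9 genes called. It was then 1.07 on the log2 scale for Hmgb1 with 37 copies, 2.30 for Hmgb2 with 5, 0.36 for Hmgb3 with 1, 1.01 for Hmgn1 with 4 and 1.53 for Hmgn2 with 11.

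The other HMG-named genes and genes with HMG boxes moved in both directions. Of 21 listed genes 20 were tested, 13 rose, 5 fell and 2 did not pass, where 25.3% of all tested genes rose and 28.2% fell. The median log2 difference of the list was 0.47. Hmg20b, a subunit of the LSD1-CoREST complex, had 25.2, 27.4, 23.99 and 27.95 CPM in KO 1 to KO 4, against 6.15, 5.98, 5.94 and 6.92 CPM in WT 1 to WT 4. It rose by 2.07 on the log2 scale (SE 0.14; edgeR adjusted p = 3.18e-07). Tox4 rose by 1.20 (edgeR adjusted p = 7.62e-06), Wdhd1, which acts at replication forks, by 0.89 (edgeR adjusted p = 1.22e-05), and Bbx by 0.99 (edgeR adjusted p = 2.16e-05). The 5 that fell were Tox, Tox2, Tox3, Cic and Hmgxb4, named after their values were seen, and 3 of them are TOX family genes. The call of Cic (-0.38) was lost without KO 1 or KO 4, at -0.30 each. That of Hmgxb4 (-0.29) was lost without KO 1, KO 4, WT 1, WT 3 or WT 4, between -0.19 and -0.29, and with DESeq2, RLE scaling, no filter and the replicate block. With upper-quartile scaling 10 of the list rose and 6 fell. Tox2 averaged 4.08 ± 1.06 CPM in KO and 13.35 ± 3.47 CPM in WT (SD, n = 4; -1.70, edgeR adjusted p = 5.88e-05).

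Partners and receptors of HMG proteins were tested at 14 of 16 genes. Of these 7 rose, 2 fell and 5 did not pass, where 25.3% of all tested genes rose and 28.2% fell. The median log2 difference of the list was 0.52. The 4 with the lowest p encode nuclear histone chaperones. Anp32b averaged 344 ± 52.6 CPM in KO and 103.5 ± 8.45 CPM in WT (SD, n = 4; 1.73, edgeR adjusted p = 5.64e-07). Anp32a rose by 1.78 (edgeR adjusted p = 1.05e-06), Set by 1.34 (edgeR adjusted p = 3.81e-06) and Npm1 by 1.20 (edgeR adjusted p = 4.05e-06). The 2 that fell, named after their values were seen, were the cell surface receptors Ager and Tlr2. Both were at low levels, Ager with 1.69 ± 0.51 CPM in KO and 2.805 ± 0.49 CPM in WT, and Tlr2 with 0.69 ± 0.22 CPM in KO and 1.76 ± 0.69 CPM in WT. Ager (-0.74) kept its call only without KO 3 among fits that left out 1 library. The call of Ager was also lost with RLE scaling (-0.71), no filter (-0.69), the replicate block (-0.75), DESeq2 (-0.68) and cyclic loess (-0.37). Tlr2 (-1.32) lost its call with cyclic loess (-0.60). With upper-quartile scaling 6 of the list rose and 4 fell.

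Linker histones, which compact chromatin and compete with HMG proteins for nucleosomes, were tested at all 9 listed genes. Of these 8 rose and 1 fell, where 25.3% of all tested genes rose and 28.2% fell. The median log2 difference of the list was 2.41. Hist1h1b averaged 129.5 ± 19.7 CPM in KO and 4.82 ± 0.96 CPM in WT (SD, n = 4; 4.74, edgeR adjusted p = 3.2e-09). Hist1h1d rose by 3.91 (edgeR adjusted p = 6.54e-09), Hist1h1c by 3.57 (edgeR adjusted p = 5.78e-09) and Hist1h1e by 2.41 (edgeR adjusted p = 3.22e-08). The 1 that fell, named after its values were seen, was the oocyte form H1foo, at 0.56 ± 0.34 CPM in KO and 1.51 ± 0.80 CPM in WT. The call of H1foo (-1.45) was lost with cyclic loess (-0.70) and without KO 2, KO 3, KO 4, WT 1 or WT 3, between -1.08 and -1.34.

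All 24 of 24 listed proliferation genes rose, where 25.3% of all tested genes did, with a median log2 difference of 1.54. Mki67, a marker of cycling cells, rose by 3.00 (edgeR adjusted p = 6.54e-09). Rrm2, a subunit of ribonucleotide reductase, averaged 33.7 ± 3.22 CPM in KO and 4.29 ± 1.07 CPM in WT (SD, n = 4; 2.97, edgeR adjusted p = 1.86e-07). Aurkb, a mitotic kinase, rose by 2.59 (edgeR adjusted p = 2.42e-07) and Ccna2, a cyclin of S and G2 phase, by 1.87 (edgeR adjusted p = 2.7e-07). Their part in the differences of the HMG genes was not tested.

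**Figure D5:**
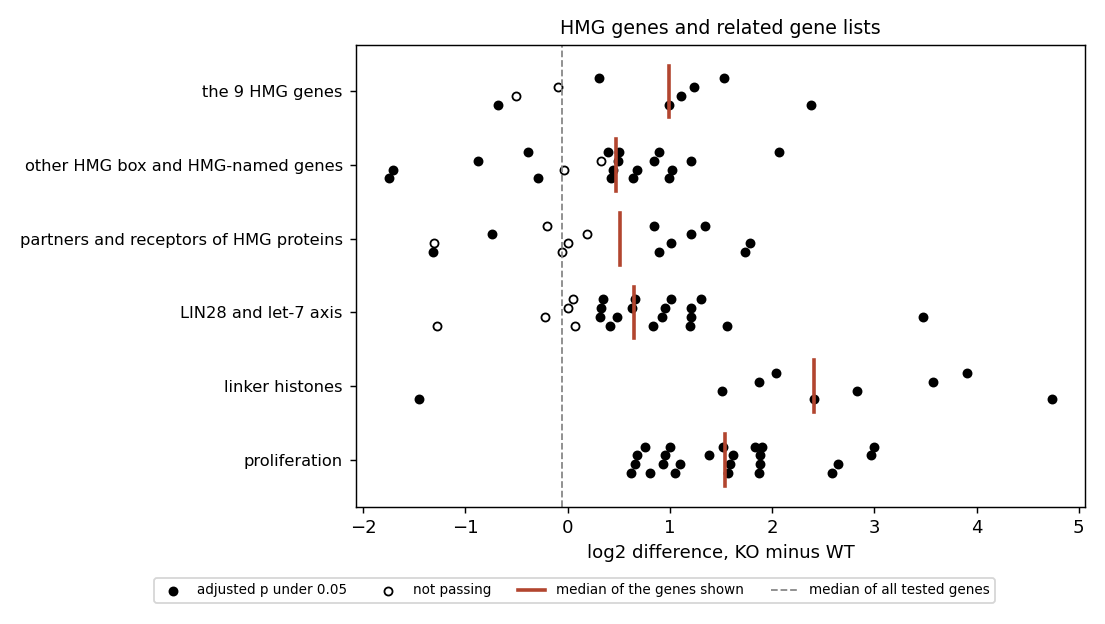
Log2 difference, KO minus WT, of the 9 HMG genes and of each tested gene in 5 related lists (filled, adjusted p under 0.05 over all tested genes; open, not passing), with the median of each row (red) and of all tested genes (dashed, -0.05). All 24 proliferation genes and 8 of 9 linker histones lie to the right, while the HMG genes reach both sides.

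The genes whose pattern over the 8 libraries was most like that of an HMG gene were found among 16568 tested protein-coding genes, by the root mean square difference of centred log2 CPM. For Hmgb2 they were Nasp, a histone chaperone (0.12), Hist1h1e (0.14) and Pskh1 (0.15). For Hmgn2 they included Adss (0.07) and Ogt (0.08), and for Hmga2 they were Sh3rf3 (0.08), Sstr5 (0.11) and Magea8 (0.13).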

How the data were processed

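The authors deposited 1 table of unnormalized whole-number counts, with a row for each gene and a column for each library. Tools in the submitters' processing notes are featureCounts 1.5.0, STAR, Trim Galore, DESeq2 and edgeR, on the build mm10, without saying which did what. The library kit carries unique molecular identifiers, per the labels' protocols, but no source used here says whether reads were collapsed by them or which strand setting was used.

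Identifiers were matched without version to GENCODE M21 (55141 of 55401 rows). Counts were fitted in edgeR 4.0.16 (R 4.3.3) with filterByExpr, TMM scaling and the quasi-likelihood test of genotype, adjusted by Benjamini-Hochberg over 24005 genes, which was tested on simulated data, where false calls came out slightly above the nominal share, so calls near the threshold are the least firm. CPM and RPKM (union of exons) were computed from the counts. Copies of coding sequences were searched with blastn 2.17.0 in annotated transcripts. Spread between libraries is given as SD. No 2 libraries of the same group agreed within sampling noise (chi-square per degree of freedom 7.34 to 26.5).

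The HMG genes, lists, tests and most alternatives were chosen with earlier results of these data known. Named were all 9 genes, Hmgb4, Hmga1b and Tet1, the 4 tested genes of lowest p in each of 5 lists, up to 2 of each marker list by level, and the 3 genes most like the HMG gene of largest difference in each family. One gene that falls under this rule is not reported here. The alternatives were other scalings, filters, thresholds and gene lengths, DESeq2 1.42.0, limma-voom 3.58.1, robust dispersion, protein-coding genes only, a replicate block and leaving out each library. Cyclic loess, added copies and marker counts without KO 4 were chosen after seeing the data.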

Additional observations from a re-analysis of the deposited data

Results flagged for a closer look

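In groups of 4 libraries, 13 values among 108 groups of named genes lay far from the other 3 (a gap above Dixon's critical value), and chance flags about 1 in 20 groups. One was an HMG gene: Hmga1 stood at 60.1 CPM in KO 4, with 69.9 to 71.6 CPM in the other libraries labelled KO. Its copy Hmga1b stood at 19.2 CPM in WT 4, with 10.2 to 11.2 CPM in the other WT libraries.

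KO 4 also held most of the marker genes of somatic testis cells that stood apart: Cyp17a1 at 862 CPM (1.55 to 4.704 CPM in KO 1 to KO 3), Cyp11a1 at 369.5 CPM (1.33 to 4.37), Inha at 58.3 CPM (2.21 to 2.36) and Clu at 52.5 CPM (17.03 to 21.85). KO 3 was low for Rrm2 at 28.9 CPM (34.8 to 35.98 in the others), Anp32b at 266 CPM (363.8 to 380.3) and Mycn at 49.9 CPM (70.5 to 72.2). H1foo was high in KO 1 at 1.06 CPM (0.34 to 0.44), and Aurkb was high in KO 2 at 26.4 CPM (21.7 to 22.5). In WT 2, Anp32a was low at 16.9 CPM (20.2 to 20.45) and Col3a1, an interstitial and peritubular marker, high at 56.3 CPM (21.3 to 25.5). The markers of that list, Col3a1 included, summed to 188 CPM in WT 2 and 129 to 132 CPM in the other libraries labelled WT.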

How the results depend on the processing

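Of 198 values of the HMG genes under alternatives, 176 kept their direction and their side of the threshold, 15 lost the call, 6 gained one and 1 reversed (Hmga1, 0.054 with copies added). The other reversal was Cyp11a1, -0.77 without KO 4 and at most 4.95 without another library (KO 2). Hmgb1, Hmgb2, Hmgn1, Hmgn2 and Hmgn5 were called higher in all 21 other fits at an adjusted p under 0.05. The genes called lower numbered 1 with TMM, 3 with upper-quartile scaling, 3 with total library size only, 2 with ribosomal protein gene scaling and 2 with cyclic loess. At an adjusted p under 0.01, 4 were called, 4 higher and 0 lower. No share of all tested genes is given at that threshold, so nothing is read from this count. Leaving out 1 library gave 5 to 7 called, 5 to 6 higher and 0 to 1 lower, with 0 only without KO 4. Such fits called, over all genes, 5353 (without WT 1) to 6251 (without KO 3) higher. They called 5928 (without WT 3) to 7014 (without KO 3) lower. Over all genes, 6083 were called higher with TMM, 4033 with upper-quartile and 4009 with ribosomal protein gene scaling. The causes were not tested. The library names of KO 1 and WT 1 share a number that the labels do not explain. Of 4 same-numbered pairs, the deviations of KO 1 and WT 1 from their groups correlated at r 0.15, and those of the other 3 at -0.21 to 0.015. Differently numbered pairs ran from -0.22 (KO 1 and WT 4) to 0.24 (KO 2 and WT 4), so the numbers were not taken as pairing the libraries. With the replicate number as a block, 6 HMG genes were called, 5 higher and 1 lower, and Hmgb3 was lost. Differences of Hmga2 and Hmgn3 rest on low counts, and reads shared with copies limit Hmga1, Hmgb1, Hmgb3 and Hmgn2, among others.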
